A study of Mus musculus with 10 samples.

Results

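Smads and the genes that restrain them were examined in the bladders of mice that lacked OMD or PRELP, a pair of small leucine-rich proteoglycans of the extracellular matrix. The 10 genes were taken from the list by gene symbol, with no use of their values, out of 55536 genes counted in each library. They were Smad2, Smad3 and Smad4, which carry the signal, Smad6, Smad7, Skil and Bambi, which restrain it, and Id1, Id2 and Id3, which respond to it. All 10 were counted in every library and all 10 passed the filter on low counts in every comparison. The RNA came from homogenised bladder tissue of Mus musculus and was read as poly(A)-selected mRNA in 10 libraries. The labels describe the material this way, while the study's text speaks of isolated bladder epithelia and gives mouse numbers that differ from the numbers of libraries. The groups were wild type (WT, n = 4), OMD-/- (n = 3) and PRELP-/- (n = 3, with the genotype spelled PRLEP-/- in the labels). Both mutants were constitutive knockouts, lacking the gene in every cell of the body, in which a β-galactosidase reporter had replaced coding exons. Age, and whether each library came from a separate mouse, were not given in the sources used here, so that the tests measure the spread between these libraries, which may be technical.

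TGF-β ligands bind paired receptor kinases that phosphorylate the receptor-regulated Smads SMAD2 and SMAD3, and BMP ligands act through SMAD1, SMAD5 and SMAD9. The phosphorylated Smads join the shared partner SMAD4, enter the nucleus and switch target genes on or off. The pathway also restrains itself. SMAD6 and SMAD7 occupy receptors and recruit ubiquitin ligases, SKIL (also called SnoN) is a nuclear corepressor of Smad complexes, and BAMBI is a decoy receptor without a kinase domain. ID1, ID2 and ID3 are classical BMP targets, and they hold E proteins away from DNA and so oppose differentiation. In the bladder the pathway is known to act both in the urothelium, the lining epithelium, and in the stroma beneath it.

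The libraries held 20391437 to 46269079 counts. Values below are normalised read counts (CPM, scaled to library size) after TMM scaling, a correction for differences in RNA composition between libraries. Prelp stood at 1.84 to 4.20 CPM in PRELP-/-, at 214 to 317 CPM in WT and at 771 to 825 CPM in OMD-/-. Omd was too low in WT to check the labels, with 0, 1, 8 and 12 reads, against 0 in each OMD-/- library. Uroplakin and keratin markers of the urothelium were high in every library, between 7778 and 19949 CPM for 6 umbrella cell genes together. PRELP-/- replicate 1 stood apart from its group, with a scaling factor of 0.816 against 0.938 to 1.11 elsewhere and 473 CPM of haemoglobin and erythroid genes against 35.4 to 69.6 CPM. Genes of the Y chromosome summed to 179 and 211 CPM in WT replicates 1 and 2 and to under 2 CPM in WT replicates 3 and 4. They lay between these levels in 4 of the knockout libraries, at 18.4, 18.5 and 98.2 CPM in PRELP-/- and 17.4 CPM in OMD-/- replicate 1. The tests of the 10 genes were therefore also run without PRELP-/- replicate 1, and those against WT also within the libraries on one side of 10 CPM of Y genes.

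Stretches from the promoter entries of 3 genes are shown because Smad3 and Id2 changed in opposite directions in OMD-/- and because Smad6 carries the palindromic Smad-binding element. They are RefSeq sequence of build GRCm38.p6, all on the minus strand, and 4 of the 10 genes had an entry (Smad3, Smad6, Id2 and Id3). Capitals mark the Smad motifs searched on both strands, namely GTCTAGAC, GGCGCC and the core GTCT (AGAC on the other strand), which lies inside GTCTAGAC.
Smad3, chr9:63757995-63758244: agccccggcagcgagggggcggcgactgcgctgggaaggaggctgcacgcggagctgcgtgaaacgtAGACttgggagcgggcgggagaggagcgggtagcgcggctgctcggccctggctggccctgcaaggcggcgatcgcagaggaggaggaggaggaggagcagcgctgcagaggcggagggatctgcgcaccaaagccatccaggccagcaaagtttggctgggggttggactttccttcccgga
Smad6, chr9:64022056-64022309: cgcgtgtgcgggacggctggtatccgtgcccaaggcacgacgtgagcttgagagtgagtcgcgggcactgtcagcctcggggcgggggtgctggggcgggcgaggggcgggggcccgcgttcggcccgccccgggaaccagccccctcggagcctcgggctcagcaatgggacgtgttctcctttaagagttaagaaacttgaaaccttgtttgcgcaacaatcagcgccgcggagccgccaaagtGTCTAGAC
Id2, chr12:25096254-25096342: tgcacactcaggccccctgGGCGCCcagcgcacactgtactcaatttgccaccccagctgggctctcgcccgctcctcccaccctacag
In the window from 250 bases before to 50 after the start site, Smad3 held 1 core at −183 and Smad6 held the palindrome at −4, across the start site itself. Id2 held GGCGCC at −231 and a core at −23, and Id3, whose upstream bases lie in an annotated exon and are not shown, held cores at −166, −68 and 22. In Id2, 161 of the 250 upstream bases lie in an annotated exon and are not shown, the core among them. The Id2 stretch shown lies inside the annotated gene, which spans chr12:25093799-25097140, so that it is not sequence upstream of the whole gene. Of 32851 promoters of this length, 0.21% held the palindrome, 11.87% held GGCGCC and 87.98% held a core. The core is therefore found in nearly every promoter, and a match of letters is no evidence of binding.

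Compared per kilobase of exon, the 3 Id genes were the most abundant of the 10 in WT bladder. Id1 led with 143 ± 10.4 CPM per kb (SD, n = 4), followed by Id3 with 65.1 ± 9.17 and Id2 with 61.6 ± 6.33, and Id3 and Id2 overlapped between libraries. The signal carriers came next, with Smad3 at 25.9 ± 2.37, Smad2 at 22.2 ± 0.598 and Smad4 at 18.7 ± 1.79 CPM per kb. Smad3 was above Smad2 and Smad2 above Smad4 in every WT library. The restraining genes were lowest, at 8.60 ± 1.67 for Smad6, 7.0 ± 1.07 for Smad7, 5.47 ± 0.729 for Skil and 5.24 ± 0.664 CPM per kb for Bambi, and neighbours in this order overlapped. In OMD-/- the order changed within each class. Id1 still led at 75.4 ± 7.34 CPM per kb (n = 3), but Smad3, at 39.8 ± 2.61, came close to Id2 at 44.4 ± 1.91 and overlapped Id3 at 43.4 ± 8.07. Smad7, at 4.52 ± 0.325, moved below Skil at 5.76 ± 0.763 CPM per kb.

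The first comparison asked what loss of OMD did to these genes. In OMD-/- bladder Smad3 rose, while the inhibitory Smad7, the decoy receptor Bambi and all 3 Id genes fell. Thus 6 of the 10 genes passed an adjusted p of 0.05, 1 higher and 5 lower. In the same comparison 29.4% of all 16647 genes tested were called, 14.3% higher and 15.1% lower. The median log2 fold change was −0.39 over the 10 genes and −0.0002 over all genes tested, and the median size of the change, without its sign, was 0.45 against 0.29. The ranges of OMD-/- and WT did not overlap for 7 of the 10 genes, against 38.9% of all genes. Since markers of several cell types also moved in this comparison, in bulk RNA fewer cells of a type and less RNA per cell cannot be told apart.

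**Figure D1:**
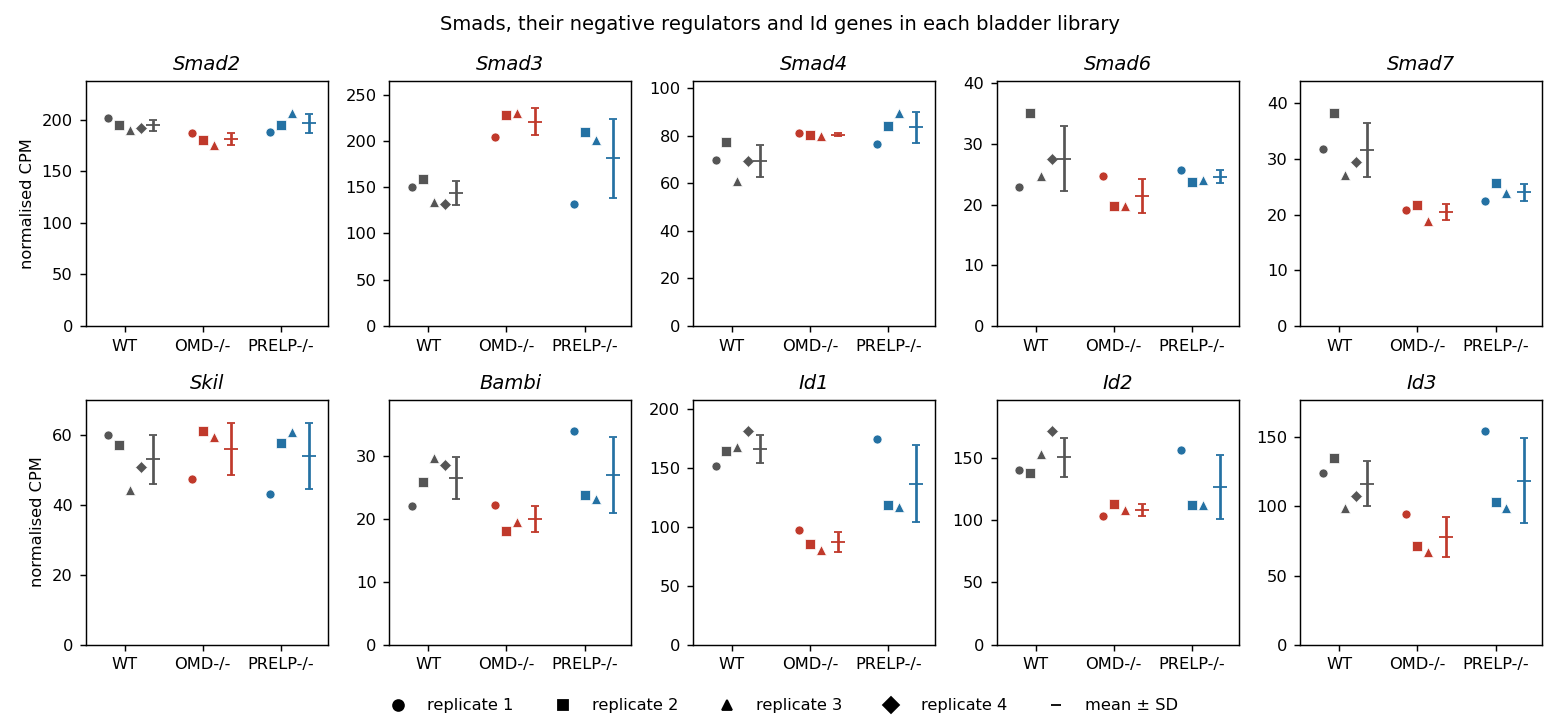
Normalised CPM (vertical axes, from 0) of the 10 genes in each library of WT (grey), OMD-/- (red) and PRELP-/- (blue). Marker shapes stand for replicate numbers and bars for mean ± SD. Id1 in the 3 OMD-/- libraries sits between 80.3 and 96.8 CPM, below the 152 to 181 CPM of WT, and PRELP-/- replicate 1 sits apart from the other PRELP-/- libraries in Smad3, Skil, Bambi, Id1, Id2 and Id3.

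Among the signal carriers, only Smad3 passed the test. Smad3 (ENSMUSG00000032402, chr9:63646767-63757994, GRCm38) had 150, 159, 134 and 131 CPM in WT and 204, 228 and 230 CPM in OMD-/-. Every OMD-/- library was above every WT library, and the change was 0.62 on the log2 scale (SE 0.09, adjusted p = 0.000798), or 53.5% more. Smad2 (ENSMUSG00000024563, chr18:76241580-76310963), which shares the TGF-β receptors with Smad3, had 202, 195, 190 and 192 CPM in WT and 187, 181 and 176 CPM in OMD-/-. Its groups also did not overlap, but on the lower side, and the log2 fold change of −0.11 (95% interval −0.26 to 0.05, adjusted p = 0.286) did not pass. Smad4 (ENSMUSG00000024515, chr18:73639009-73703780), the shared partner, had 69.7, 77.4, 61.1 and 69.2 CPM in WT and 81.0, 80.4 and 79.9 CPM in OMD-/-. The 3 OMD-/- values lay close together just above WT, with a log2 fold change of 0.21 (0.02 to 0.40, adjusted p = 0.0893). Smad4 passed when WT replicate 2 was left out (log2 fold change 0.26, adjusted p = 0.0453).

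Since Smad2 and Smad3 serve the same receptors, their proportion within a library was compared, a measure that does not depend on scaling between libraries. The ratio of Smad3 to Smad2, per kb of exon, was 1.18, 1.29, 1.12 and 1.08 in WT and 1.73, 1.99 and 2.07 in OMD-/-. The groups were apart, with means of 1.17 ± 0.0915 and 1.93 ± 0.181 (exact permutation test, two-sided, p = 0.0571, the smallest that 4 against 3 libraries allow, and 0.107 after Benjamini-Hochberg adjustment over 15 such tests). In PRELP-/- the ratio was 1.11, 1.70 and 1.54. Replicate 1 lay within WT and the other two lay above it (exact permutation p = 0.229, adjusted 0.264). This ratio and the proportions below were chosen after the levels had been seen. In OMD-/- Smad3 was higher and Smad2 lower without overlap, so that the separation of their ratio from WT was fixed in advance.

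Of the 4 restraining genes, Smad7 and Bambi fell in OMD-/-. Smad7 (ENSMUSG00000025880, chr18:75367529-75395935), the inhibitory Smad that is induced by TGF-β itself, had 31.8, 38.3, 27.1 and 29.4 CPM in WT and 20.9, 21.7 and 18.8 CPM in OMD-/-. All 3 knockout libraries were below WT, and the log2 fold change was −0.63 (SE 0.12, adjusted p = 0.00363), so that the level fell by 35.4%. Bambi (ENSMUSG00000024232, chr18:3507923-3516404) had 22.1, 26.0, 29.7 and 28.5 CPM in WT and 22.2, 18.1 and 19.5 CPM in OMD-/-. OMD-/- replicate 1 reached the lowest WT library, and the log2 fold change was −0.41 (SE 0.12, adjusted p = 0.0288). The call on Bambi was lost without OMD-/- replicate 2, OMD-/- replicate 3, WT replicate 3 or WT replicate 4, with adjusted p-values of 0.129, 0.103, 0.0764 and 0.0564 in that order.

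Smad6 (ENSMUSG00000036867, chr9:63953076-64022059), the inhibitory Smad that acts mainly on BMP signals, had 22.9, 35.1, 24.8 and 27.4 CPM in WT and 24.6, 19.8 and 19.8 CPM in OMD-/-. The groups overlapped through OMD-/- replicate 1 and WT replicate 1, and the log2 fold change of −0.36 (95% interval −0.69 to −0.04, adjusted p = 0.0877) passed only where WT replicate 1 was left out among the fits that drop 1 library (adjusted p = 0.0428). Skil (ENSMUSG00000027660, chr3:31095058-31122577), the corepressor, had 60.0, 57.1, 44.1 and 50.8 CPM in WT and 47.4, 61.0 and 59.3 CPM in OMD-/-. Its ranges were much the same, with a log2 fold change of 0.08 (−0.20 to 0.35, adjusted p = 0.688).

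Smad3 and Smad7 are a carrier and a restrainer of one signal, and their opposite changes gave a wide gap in proportion. The ratio of Smad7 to Smad3, per kb of exon, was 0.259, 0.296, 0.248 and 0.274 in WT and 0.125, 0.117 and 0.100 in OMD-/-. PRELP-/- had 0.210, 0.150 and 0.145, so that all 6 knockout libraries lay below all 4 WT libraries. Each knockout against WT gave the smallest exact permutation p that the design allows, 0.0571 (adjusted 0.107). In OMD-/- Smad3 was higher and Smad7 lower without overlap, so that the separation of this ratio was also fixed in advance. In PRELP-/- Smad7 was lower without overlap, while Smad3 overlapped WT.

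All 3 Id genes fell, and Id1 showed the largest change of the 10 genes. Id1 (ENSMUSG00000042745, chr2:152736251-152737410) had 152, 164, 167 and 181 CPM in WT and 96.8, 85.2 and 80.3 CPM in OMD-/-. Its level fell by 47.4%, or −0.93 on the log2 scale (SE 0.09, adjusted p = 7.69e-05), with a wide gap between the groups. Id2 (ENSMUSG00000020644, chr12:25093799-25097140) had 140, 137, 153 and 171 CPM in WT and 103, 113 and 108 CPM in OMD-/-. The groups did not overlap, and the level fell by 28.1%, or −0.48 on the log2 scale (SE 0.10, adjusted p = 0.00434). Id3 (ENSMUSG00000007872, chr4:136143497-136145755) had 124, 135, 98.7 and 108 CPM in WT and 94.2, 71.7 and 67.2 CPM in OMD-/-. OMD-/- replicate 1 came near the lowest WT library but stayed below it, and the level fell by 33.4%, or −0.59 on the log2 scale (SE 0.13, adjusted p = 0.00826).

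The proportions of the Id genes were compared within libraries. Id1 made up 50.8, 51.8, 55.1 and 54.5% of the summed Id1, Id2 and Id3 level per kb in WT and 46.8, 46 and 45.8% in OMD-/-. All OMD-/- libraries were below WT (means 53.0 ± 2.08% and 46.2 ± 0.531%, exact permutation p = 0.0571, adjusted 0.107). PRELP-/-, at 50.0, 49.6 and 49.9%, lay between, also below every WT library with the same p. Within WT the 2 libraries of high Y signal lay below the other 2. These WT pairs also differed in smooth muscle markers, at 326 and 309 against 1285 and 1127 CPM. The part of either difference in the share was not tested.

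Within the libraries whose Y genes were under 10 CPM, OMD-/- replicates 2 and 3 against WT replicates 3 and 4, the 6 called genes kept their direction and their call. Smad3 had a log2 fold change of 0.79 there, Smad7 of −0.48, Bambi of −0.63, Id1 of −1.07, Id2 of −0.55 and Id3 of −0.57. Smad4 (0.30), Smad6 (−0.40) and Skil (0.34) were also called, so that 9 of the 10 genes passed. Each group here was the pair of libraries most alike in counts within its genotype, and the spread came from these pairs alone. The comparison of these 4 libraries called 8989 of 16740 genes, against 4899 with all libraries. Muscle markers moved with it. Smooth muscle markers were at 1285 and 1127 CPM in these WT libraries and at 383 and 394 CPM in these OMD-/- libraries, and skeletal muscle markers at 13.1 and 12.7 CPM against 0.297 and 0 CPM, and their part was not tested.

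**Figure D2:**
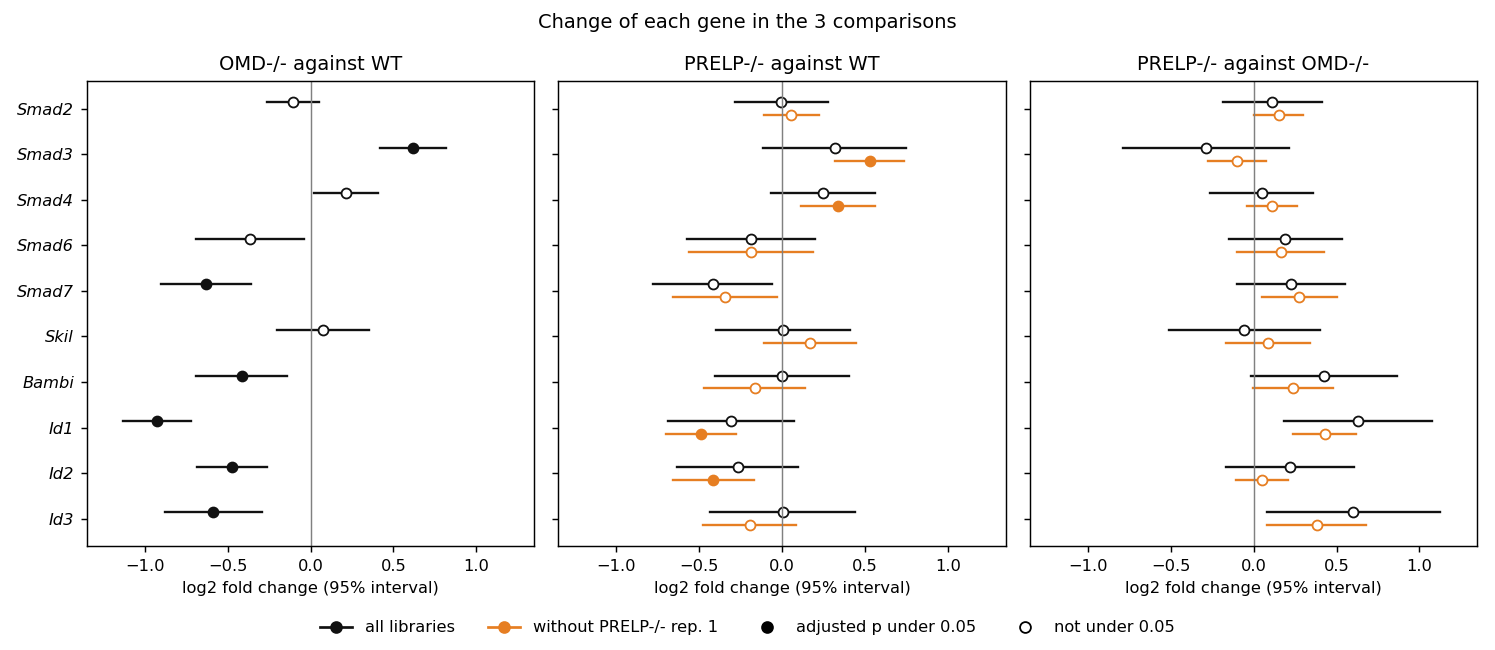
Log2 fold change with its 95% interval (horizontal axis) of each gene in OMD-/- against WT, PRELP-/- against WT and PRELP-/- against OMD-/-, with all libraries in black and without PRELP-/- replicate 1 in orange. Filled points have an adjusted p under 0.05. The left panel has 6 filled points, from Smad3 at 0.62 to Id1 at −0.93, and the middle panel has 0 with all libraries and 4 without PRELP-/- replicate 1.

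The second comparison asked the same of PRELP. With all 3 libraries, 0 of the 10 genes passed in PRELP-/- by edgeR. An unadjusted p under 0.05 was found for 1 of 10, Smad7, and for 4426 of all 16581 genes tested. DESeq2 also called 0 and limma-voom with sample weights called 5, namely Smad3 and Smad4 higher and Smad7, Id1 and Id2 lower, in a fit that called 42.1% of all genes. Of all 16581 genes tested, 7.29% were called, 1.40% higher and 5.89% lower. The ranges of PRELP-/- and WT did not overlap for 1 of the 10 genes, against 30.0% of all genes. The median log2 fold change was −0.0032 over the 10 genes and 0.02 over all genes tested.

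Smad7 was the gene without overlap. It had 22.5, 25.6 and 23.8 CPM in PRELP-/-, all below the lowest WT library at 27.1 CPM, the log2 fold change being −0.42 (SE 0.16, 95% interval −0.78 to −0.06, adjusted p = 0.137). Here PRELP-/- replicate 1 was no exception, and was the lowest of the 3.

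In 6 other genes PRELP-/- replicate 1 lay apart from replicates 2 and 3. Smad3 had 132, 210 and 201 CPM in PRELP-/-, so that replicate 1 was at the lower end of WT while the others were above all WT libraries (log2 fold change 0.32, SE 0.19, adjusted p = 0.314). Id1 had 174, 118 and 117 CPM, with replicate 1 inside the WT range and the others below it (−0.31, SE 0.17, adjusted p = 0.277). Id2 had 156, 112 and 112 CPM, in the same arrangement (−0.27, SE 0.16, adjusted p = 0.313). Id3 had 154, 103 and 98.6 CPM, with replicate 1 above all WT libraries (0.0030, SE 0.19, adjusted p = 0.995). Bambi had 33.9, 23.7 and 23.2 CPM, again with replicate 1 above WT (−0.0020, SE 0.18, adjusted p = 0.996). Skil had 43.2, 57.7 and 60.8 CPM, with replicate 1 below all WT libraries (0.0063, 95% interval −0.40 to 0.41, and 0.17 without replicate 1).

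The remaining 3 genes varied less. Smad2 had 189, 195 and 207 CPM in PRELP-/- (log2 fold change −0.0044, 95% interval −0.28 to 0.27). Smad4 had 76.6, 84.3 and 89.6 CPM, the lowest of them within WT (0.25, −0.07 to 0.56, adjusted p = 0.283). Smad6 had 25.8, 23.8 and 24.1 CPM (−0.19, −0.57 to 0.20). All 3 overlapped WT.

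Without PRELP-/- replicate 1, 4 of the 10 genes passed, all in the direction they had in OMD-/-. Smad3 rose by 0.53 on the log2 scale (SE 0.09, adjusted p = 0.00561) and Smad4 by 0.34 (SE 0.10, adjusted p = 0.0415). Id1 changed by −0.49 (SE 0.09, adjusted p = 0.00771) and Id2 by −0.42 (SE 0.11, adjusted p = 0.0259). Smad7 (−0.34, adjusted p = 0.110) and Id3 (−0.20, adjusted p = 0.290) did not pass. In this comparison 3807 of 17120 genes, 22.2%, were called. Its PRELP-/- spread came from replicates 2 and 3 alone, the libraries most alike in that group. Both knockouts were set against the same 4 WT libraries, so that shared directions are not independent. Within libraries of over 10 CPM of Y genes, all 3 of PRELP-/- against WT replicates 1 and 2, 0 of 10 genes were called and Smad3 (0.21), Smad7 (−0.57), Id1 (−0.24) and Id2 (−0.16) kept their direction, while Id3 was at −0.16. The Y sums were still 98.2, 18.5 and 18.4 CPM in this PRELP-/- group and 211 and 179 CPM in this WT group, so that Y signal was not matched here.

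The knockouts were then compared directly, with no shared controls. By edgeR 0 of the 10 genes passed an adjusted p of 0.05 between PRELP-/- and OMD-/-. An unadjusted p under 0.05 was found for 2 of the 10 (Id1 and Id3) and for 713 of all 15805 genes tested. DESeq2 called 0 of the 10 and limma-voom called Id1 and Id3, with 6.40% of all genes. Of all 15805 genes tested edgeR called 1, Prelp itself, or 0.00633%. Deviations of same-numbered replicates correlated in these groups, which does not show that the numbers are pairs. With the replicate number as a block 43 genes and still 0 of the 10 were called.

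Id1 was the most distinct. Its PRELP-/- libraries, at 117 to 174 CPM, all lay above its OMD-/- libraries, at 80.3 to 96.8 CPM, with a log2 fold change of 0.63 (95% interval 0.19 to 1.08, adjusted p = 0.690, and 0.435 with the block). Id3, at 98.6 to 154 against 67.2 to 94.2 CPM, was also apart (0.60, 0.08 to 1.12, adjusted p = 0.690, and 0.429 with the block). Without PRELP-/- replicate 1 the differences were 0.43 (0.24 to 0.62, adjusted p = 0.149) for Id1 and 0.38 (0.08 to 0.68, adjusted p = 0.469) for Id3, and neither passed. Bambi (0.42, −0.02 to 0.86), Smad7 (0.23, −0.10 to 0.55) and Smad2 (0.11, −0.18 to 0.41) were likewise higher in every PRELP-/- library than in any OMD-/- library. The count of 5 of 10 without overlap stood beside 15.1% of all genes. Id2 (0.22, −0.17 to 0.61) overlapped, as did Smad6 (0.19, −0.15 to 0.53), Smad4 (0.05, −0.26 to 0.36), Skil (−0.06, −0.51 to 0.40) and Smad3 (−0.29, −0.79 to 0.21), and these intervals do not show that the knockouts acted alike.

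**Figure D3:**
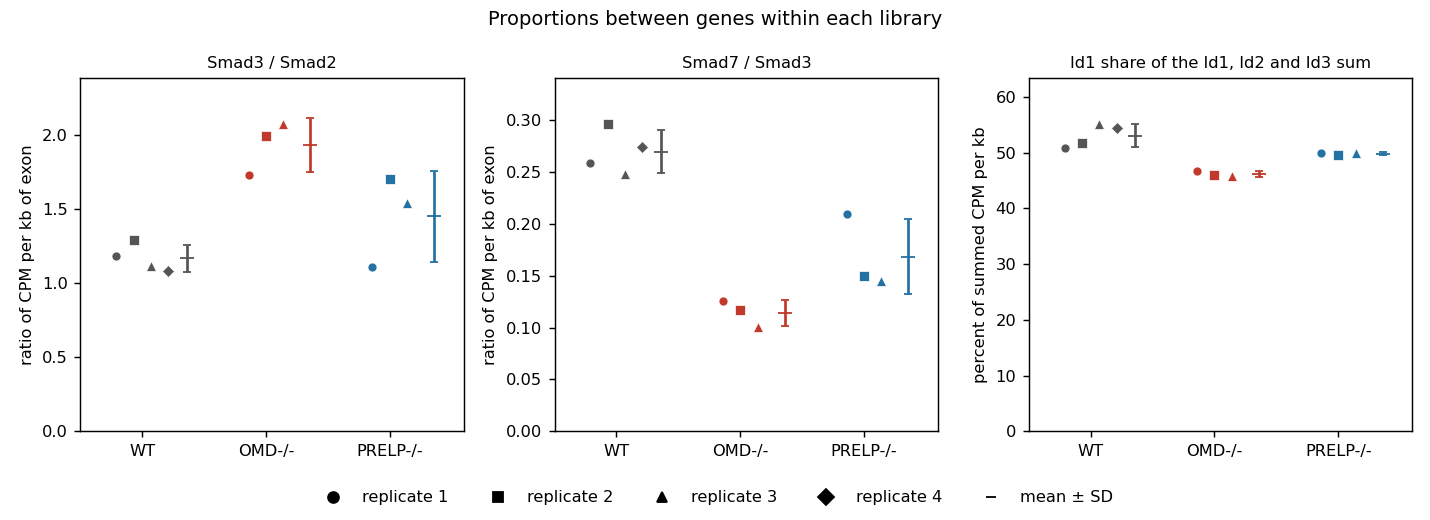
Proportions within each library: Smad3 to Smad2 and Smad7 to Smad3 (ratios of CPM per kb of exon) and the share of Id1 in the summed Id1, Id2 and Id3 level (percent), with marker shapes for replicate numbers and bars for mean ± SD. The Smad7 to Smad3 ratio of all 6 knockout libraries, 0.100 to 0.210, is below the 0.248 to 0.296 of WT.

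Genes around the 10 in the pathway were read from 8 lists of ligands, receptors, cofactors, enzymes and targets, 69 genes in all. Of 66 tested, 23 were called higher and 5 lower in OMD-/-, and 4 higher and 0 lower in PRELP-/-. Without PRELP-/- replicate 1 the count was 19 higher and 0 lower. Of all genes tested, 29.4% were called in OMD-/- (14.3% higher, 15.1% lower) and 7.29% in PRELP-/- (1.40% higher, 5.89% lower). The share of all genes was 22.2% without PRELP-/- replicate 1. These shares also stand beside the list and marker counts below. The higher genes of OMD-/- included 5 of 7 TGF-β ligands and receptors, 5 of 12 BMP ligands and receptors and 6 of 12 TGF-β targets. The lower ones included 3 of 6 BMP targets other than Id1, Id2 and Id3.

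On the TGF-β side, 5 of 7 ligands and receptors were called higher in OMD-/- and 0 lower (median log2 fold change 0.56). Tgfb3, a ligand, went from 17.3 ± 1.51 to 30.8 ± 1.98 CPM (0.83, adjusted p = 0.000261). Tgfbr2, the type II receptor that binds TGF-β first, rose by 0.35, Tgfbr3, the coreceptor betaglycan, by 0.59 and Eng, the endothelial coreceptor endoglin, by 0.75. Of 12 TGF-β target genes 6 were called higher and 1 lower (median 0.55). Tgfbi, a secreted matrix protein, went from 211 ± 13.8 to 417 ± 16.9 CPM (0.98), Fn1, fibronectin, rose by 1.04, Col1a1, the collagen I chain, by 1.58 and Ccn2, a matricellular protein also called CTGF, by 1.99 on the log2 scale. The one target that fell by this test was Junb, a transcription factor and immediate early gene, at −0.30 (adjusted p = 0.0400), which is named because it was the only one. Col1a1 was also one of the fibroblast markers.

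On the BMP side, 5 of 12 ligands and receptors were called higher and 0 lower in OMD-/- (median 0.28). The ligands Bmp5 (0.53), Bmp4 (0.55) and Bmp2 (0.31) and the type I receptor Acvr1 (0.45) were among them. Of 7 BMP antagonists, 3 were called higher and 0 lower (median 0.22), among them Sostdc1 (1.47) and Chrdl1 (0.67), which bind BMPs outside the cell. Of 6 further BMP target genes, 3 were called lower and 0 higher (median −0.33). Id4, the fourth Id gene, went from 13.6 ± 2.28 to 8.16 ± 0.860 CPM (−0.74, adjusted p = 0.00626), Atoh8, a bHLH transcription factor, changed by −0.74 and Gata2, a GATA transcription factor, by −0.36. BMP ligands and antagonists were thus called higher in the same libraries in which the Id genes were lower.

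Among 11 other Smads and cofactors, 2 were called higher and 1 lower in OMD-/- (median 0.23). Smad1, which carries BMP signals, went from 33.4 ± 2.44 to 45.3 ± 4.08 CPM (0.44), Zfyve9, the SARA protein that presents Smads to the receptor, rose by 0.27 and Trim33, which binds Smads in the nucleus, changed by −0.29. Of 8 ubiquitin ligases, phosphatases and adaptors that act on Smads, 1 was called higher, Pmepa1 (0.46), itself a negative regulator of TGF-β signalling, and 0 lower (median −0.07). Pmepa1 therefore moved opposite to Smad7 and Bambi. Of the 3 E proteins, the partners that ID proteins hold back, Tcf4 rose by 0.81, from 106 ± 13.0 to 186 ± 18.3 CPM. Tcf3 moved the other way without overlap but did not pass (−0.25, adjusted p = 0.0523). Tcf12 overlapped and did not pass either (0.12, also the list median).

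With all PRELP-/- libraries the called pathway genes were Sostdc1 (log2 fold change 1.55), Tgfb3 (0.70), Tgfbi (0.86) and Col1a1 (1.31), all of which were also called higher in OMD-/- against the same WT libraries. The list medians were 0.51 for TGF-β ligands and receptors, 0.36 for TGF-β targets, 0.26 for BMP antagonists, 0.11 for BMP ligands and receptors, 0.11 for other Smads and cofactors, −0.08 for E proteins, −0.22 for ubiquitin ligases and −0.23 for the further BMP targets. Without PRELP-/- replicate 1 the E protein median turned to 0.16, that of BMP ligands and receptors was 0.25, that of other Smads and cofactors 0.29 and that of ubiquitin ligases −0.06. The others were then 0.50 for TGF-β ligands and receptors, 0.42 for TGF-β targets, 0.24 for BMP antagonists and −0.23 for the further BMP targets. In the direct comparison of the knockouts, 0 of 65 were called by edgeR.

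**Figure D4:**
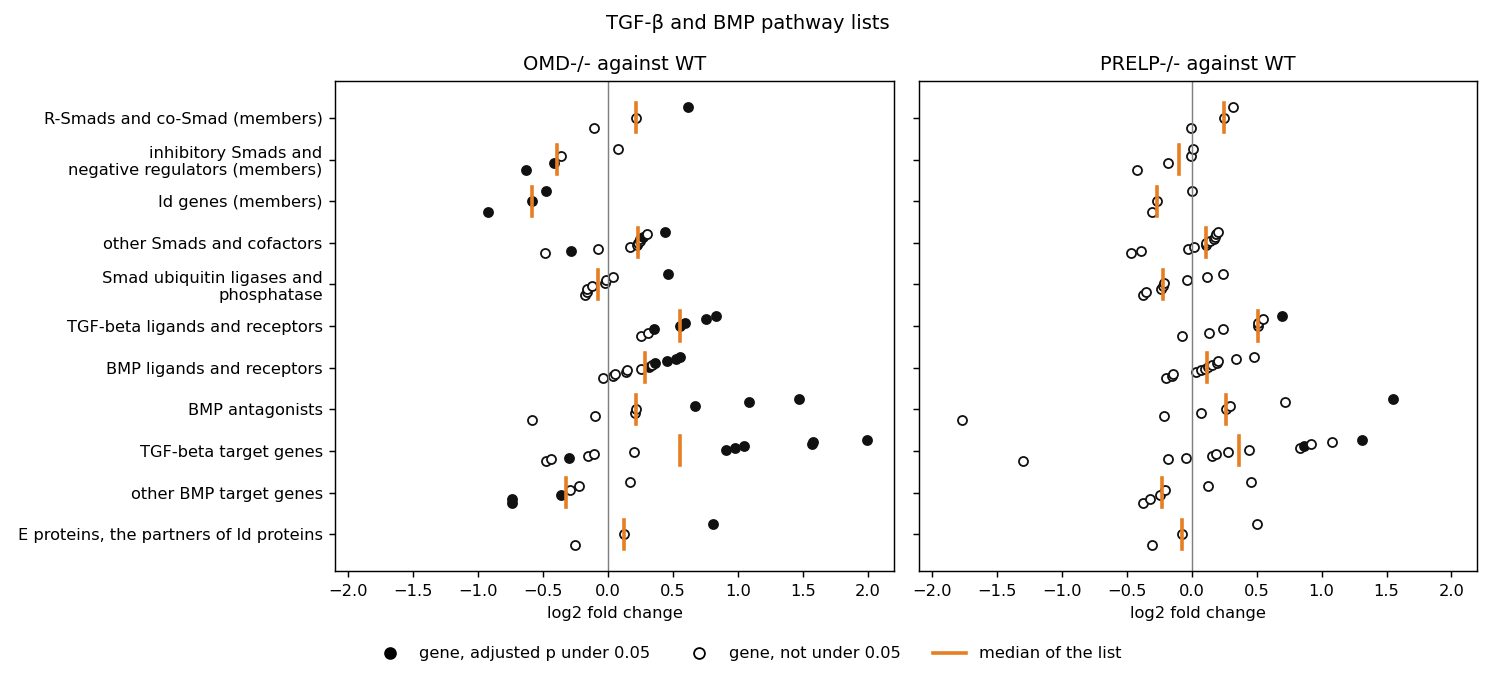
Log2 fold change (horizontal axis) of each tested gene of the pathway lists, one point a gene, in OMD-/- (left) and PRELP-/- (right) against WT. Filled points have an adjusted p under 0.05 and orange bars are list medians. On the left the TGF-β ligands and receptors lie to the right of 0 with a median of 0.56, and the Id genes lie to the left with a median of −0.59.

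Markers of cell types moved in the same libraries. The summed level of 7 fibroblast markers was 8320 to 9505 CPM in WT, 17725 to 21607 CPM in OMD-/- and 10014, 19670 and 19248 CPM in PRELP-/-. The libraries with high Smad3 and low Id1 were those with high fibroblast markers, and PRELP-/- replicate 1 was next to WT in all 3 values. Of these markers 5 of 7 were called higher in OMD-/- and 2 of 7 in PRELP-/-. The sum includes Col1a1, also listed above as a TGF-β target, which went from 1977 ± 460 CPM in WT to 5898 ± 698 CPM in OMD-/-. The fibroblast sum is therefore not separate from the TGF-β targets. Endothelial markers summed to 165 to 355 CPM in WT, 401 to 465 CPM in OMD-/- and 235, 429 and 412 CPM in PRELP-/-, with 0 of 6 called by edgeR in either knockout.

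Umbrella cell markers lay at 7778 to 9494 CPM in WT, 9900 to 13475 CPM in OMD-/- and 19949, 11736 and 11287 CPM in PRELP-/-, with 2 and 1 of 6 called higher. The 4 basal urothelium markers lay at 2340 to 3016, 3083 to 4274 and 3493 to 4792 CPM, with 1 called higher in OMD-/- and 0 in PRELP-/-. Both epithelial sums were above WT in all 6 knockout libraries. Leukocyte markers were 260 to 320 CPM in WT and 257, 524 and 543 CPM in OMD-/- (4 of 6 called higher), against 160 to 268 CPM in PRELP-/- (0 called). Smooth muscle markers summed to 326, 309, 1285 and 1127 CPM in WT, 808, 383 and 394 CPM in OMD-/- and 257, 233 and 230 CPM in PRELP-/-, all of the last below WT, with median log2 fold changes of −0.46 and −1.99 and 0 of 7 called by edgeR in either knockout. Nerve and glia markers summed to 9.99 to 13.7 CPM in WT, 9.56 to 13.7 CPM in OMD-/- and 6.36, 9.17 and 8.36 CPM in PRELP-/-, the last all below WT. Adipose markers were at 0.310 CPM or less, with 1 of 4 at 0 in every library, and skeletal muscle markers at 13.1 CPM or less. The sum of 7 immediate early genes, which respond to handling of tissue, was 258 to 287 CPM in WT, 266 to 308 CPM in OMD-/- and 267 to 300 CPM in PRELP-/-. The nerve list had 1 of 5 called higher in OMD-/- and 1 lower in PRELP-/-, and the early list 3 higher and 1 lower of 7 in OMD-/- and 0 in PRELP-/-. The part of the fibroblast, endothelial, epithelial, leukocyte, muscle and nerve levels in the changes of the 10 genes was not tested.

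**Figure D5:**
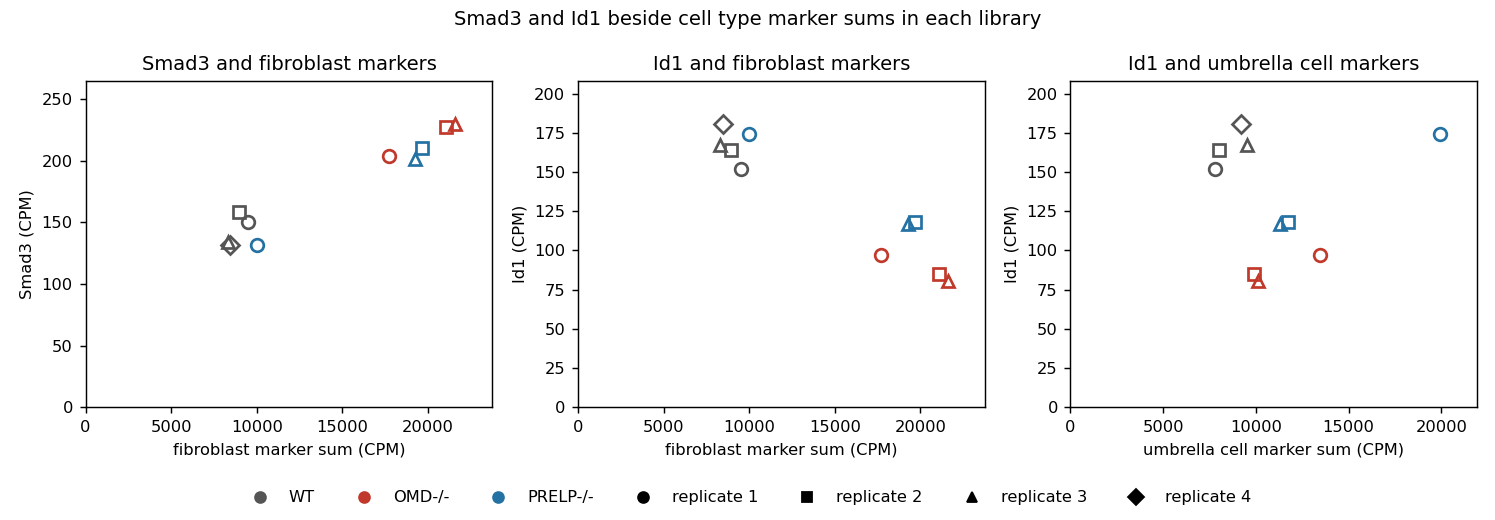
Level of Smad3 or Id1 (vertical axes, CPM) beside the summed level of fibroblast or umbrella cell markers (horizontal axes, CPM) in each library, coloured by group and shaped by replicate. Replicate 1 of PRELP-/- lies beside WT at 10014 CPM of fibroblast markers, and apart from all other libraries at 19949 CPM of umbrella cell markers.

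For each gene called in a knockout against WT, the genes nearest to it in profile were found by the root mean square difference of centred log2 CPM over the 10 libraries, among 14475 genes. These libraries share the group structure, so that closeness is a description. Smad3 was nearest to Ptk7, a Wnt coreceptor (0.0547), and Mxra8, an adhesion protein (0.0612). Smad7 was nearest to Rmnd1 (0.0691) and Mbd6 (0.115), Bambi to Taf5l (0.0631) and Tfap4 (0.0651), and Id2 to Dhx15 (0.0596). The closest gene lay farther off for Id1 (Tcim, 0.111, then Acyp1, 0.124) and Id3 (Sphk1, 0.128, then Rasgef1b, 0.135). Id1 and Id3 also varied most over the libraries, with an SD of log2 CPM of 0.444 and 0.372, against 0.260 to 0.335 for the others. The distance was not scaled to this spread, so the larger values do not show that their profiles were less shared. Neither Id1 nor Id3 appeared among the nearest genes of the other.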

How the data were processed

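The deposited files hold raw read counts per gene, 1 file a library, which the authors made from strand-specific poly(A) libraries with featureCounts. The file headers name HISAT2 and the processing notes of the submitters name bcl2fastq, STAR 2.5.2b, DESeq2 and the builds GRCm38 and hg38. The authors' tables of DESeq2 comparisons were not used. Gene IDs were matched to GENCODE vM21 (GRCm38), 55536 of 55536, and level comparisons between genes use union exon length. Only the 2 groups compared entered each fit, in edgeR 4.0.16 (R 4.3.3): TMM scaling, filterByExpr, quasi-likelihood test, two-sided, Benjamini-Hochberg adjustment over all tested genes, threshold 0.05. Alternatives used DESeq2 1.42.0, limma 3.58.1, other filters and scalings, covariates and left-out libraries, and those within libraries on one side of the Y threshold were added after seeing the data. Groups came from the sample titles. Deviations of same-numbered replicates correlated at 0.303, 0.181 and 0.148 between PRELP-/- and OMD-/-, and a fit with the replicate number as a block was run there. Libraries of unlike number were not compared, and replicate 1 stood apart from the others in both knockouts. The correlations thus do not show pairing by number, which the labels do not state. Replicates of a group differed beyond counting noise, with a chi-square per degree of freedom of 3.096 or more. Replicates 2 and 3 were the closest in each knockout, at 3.096 in OMD-/- and 3.568 in PRELP-/-. Against replicate 1 they stood at 26.83 and 24.5 in OMD-/- and at 223.2 and 219.6 in PRELP-/-. WT pairs ranged from 8.299 to 49.29. Fits that leave out replicate 1 of a knockout thus take its spread from the 2 libraries closest to each other. Genes and lists were chosen with earlier results of these data known. All 10 genes are named, with at most 4 called genes of each pathway list by adjusted p, and the 2 genes nearest in profile, except for items that are not reported here.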

Additional observations from a re-analysis of the deposited data

How the results depend on the processing

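In OMD-/- against WT, Smad3, Smad7, Id1 and Id2 kept their call and direction in 16 of 16 alternatives, Id3 in 15 (adjusted p = 0.064 in the fit on all 3 groups) and Bambi in 10, the others being the fit on all 3 groups (0.127), the replicate block (0.0901) and 4 left-out libraries. The genes called numbered 2485 in the fit on all 3 groups, 8989 within libraries of low Y signal, and 2951 to 4850 when 1 library was left out. Of the 10 genes, 4 to 9 were called over all alternatives and 5 to 7 with 1 library left out.

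In PRELP-/- against WT, the genes called numbered 2542 with DESeq2, 6973 with limma-voom, 2485 in the fit on all 3 groups, 115 with the replicate block, 536 with the Y covariate, 119 within libraries of high Y signal and 475 to 3807 with 1 library left out. Of the 10 genes, limma-voom called 5 and left-out libraries 0 to 4, the 4 without PRELP-/- replicate 1. Of the genes near 0, Smad2 reversed with DESeq2 (0.0140), its size factors (0.0131), no filter (0.0111), all 3 groups (0.0145) and limma-voom (0.0476), and ranged from −0.0438 to 0.0553 with a library left out. Bambi reversed with DESeq2 (0.0145), its size factors (0.0153), no filter (0.0092), all 3 groups (0.0200), the replicate block (0.0212), the Y covariate (0.14) and the high-Y libraries (0.14), and ranged from −0.17 to 0.0908. Id3 reversed with the minimum of 1 CPM (−0.0128), limma-voom (−0.11), the replicate block (−0.0490), the Y covariate (−0.16) and the high-Y libraries (−0.16), and ranged from −0.20 to 0.12. Skil reversed with the minimum of 1 CPM (−0.0112), the replicate block (−0.0219), the Y covariate (−0.14) and the high-Y libraries (−0.14), and ranged from −0.0906 to 0.17. Without a library Skil in OMD-/- against WT ranged from −0.0086 to 0.19.

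Between the knockouts, the genes called numbered 5 with no filter, 87 with DESeq2, 1012 with limma-voom, 3 in the fit on all 3 groups, 43 with the replicate block, 2 with the Y covariate and 1 to 36 with 1 library left out, and limma-voom called 2 of the 10. Skil reversed with the Y covariate (0.19) and limma-voom (0.0115) and ranged from −0.17 to 0.0846, Smad6 reversed with the Y covariate (−0.0062) and Smad4 ranged from −0.0119 to 0.11. The causes were not tested. Against WT, same-numbered replicates did not deviate together (correlations of −0.0998 to 0.137), so the replicate block there says nothing of pairing. The median of all genes moved to −0.10 with DESeq2 in OMD-/- and to −0.11 with no filter, while the 6 called genes kept their direction.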
